A study of Homo sapiens with 12 samples.

Results

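Monomethylated lysine 9 of histone H3 (H3K9me1) was examined over 8.0 Mb of chromosome bands 6p22 and 6p21, which hold the largest human histone gene cluster and the major histocompatibility complex (MHC). All H3K9me1 regions on chromosome 6 whose midpoint lay between 25.5 and 33.5 Mb (build hg19) were taken, by position alone and not by any measured value. They numbered 1610 and 2955 in restricted A and B, and 2516 and 2943 in control A and B. The total of 10024 compares with 1295587 regions on the 8 chromosomes that every H3K9me1 list contains (1, 2, 6, 7, 10, 12, 16 and 17), and with 2264195 regions in the 4 lists as a whole, which as used here do not all hold the same chromosomes.

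The data are ChIP-seq (chromatin immunoprecipitation with sequencing) peak lists from HCT116, an established human colorectal carcinoma cell line, at passage 19 in all libraries. The restricted libraries, A and B, came from cells held for 24 hr in RPMI-1640 without methionine and with 10% fetal bovine serum. The control libraries, A and B, came from cells grown in RPMI-1640 with 10% fetal bovine serum and taken at 0 hr. For H3K9me1 the group is given by the time in each library's title. No library of control cells at 24 hr was analysed here, so an effect of restriction and one of the 24 hr in culture cannot be told apart. The labels do not state that A and B were separate cultures, so the spread between them may be technical.

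Histone methyltransferases take their methyl group from S-adenosylmethionine, which cells make from methionine. H3K9me1 is the lowest degree of methylation of this residue and has been mapped to transcribed chromatin; it is also a precursor of the higher degrees. The histone genes on 6p22 encode the replication-dependent core and linker histones, among them copies of H3, the protein that carries the mark. The MHC is divided into 3 classes. Class I holds genes such as HLA-B and HLA-C, which present peptides from inside the cell to cytotoxic T cells. Class III lies between the others and holds no HLA gene, but complement genes (C2, CFB, C4A), the cytokine genes TNF and LTA, the heat shock gene HSPA1A and NOTCH4. Class II holds the HLA-DR, HLA-DQ and HLA-DP genes, which present peptides from outside the cell to helper T cells, and also TAP1, TAP2, PSMB8 and PSMB9, which make and carry peptides for class I.

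The locus was divided into histone window 1 (26.0 to 26.3 Mb), histone window 2 (27.7 to 27.9 Mb), class I (29.6 to 31.5 Mb), class III (31.5 to 32.2 Mb), class II (32.2 to 33.1 Mb) and the rest. The rest is made of 4 stretches. Stretch 1 (25.5 to 26.0 Mb) holds the phosphate transporter gene SLC17A1, and stretch 2 (26.3 to 27.7 Mb) holds the butyrophilin gene BTN3A1, ABT1 and PRSS16. Stretch 3 (27.9 to 29.6 Mb) holds the zinc finger gene ZSCAN12, TRIM27 and the olfactory receptor gene OR2J3. Stretch 4 (33.1 to 33.5 Mb) holds the collagen gene COL11A2, the Polycomb gene RING1 and the histone chaperone gene DAXX. These names were checked against the RefSeq gene order on another build, GRCh38.p14. All 47 landmark genes were found on chromosome 6, in 9 unbroken blocks for the 9 windows and stretches, with 53 protein-coding histone genes from SLC17A1 to H3C12. The histone genes were counted over that whole span and not by window, so stretches 1 and 2 may also hold some. Genes are named only as known residents of a window, and no region was assigned to a gene, since no annotation of hg19 was used here.

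The restricted A list was much shorter than the others. Its regions covered 5.72% of the 8 chromosomes, against 14.8% in restricted B, 12.4% in control A and 15.1% in control B, although it held the most reads (39452512, against 30952210 to 35134998 in the others, per the file headers). Values are therefore given as relative density, the covered share of a window divided by the covered share of the 8 chromosomes in the same library, so that 1 is the library's own average. The regions were called with a weak cutoff (p of 0.1), and each is a site of slight excess over input. With 2 libraries against 2, the smallest p of an exact two-sided permutation test over the 6 relabellings is 0.333, so no single value could pass 0.05. Within H3K9me1, A libraries were sequenced on lane 2 and B libraries on lane 3, so ratios of A to A and of B to B are within-lane values.

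H3K9me1 was denser over the locus than over the average of the 8 chromosomes in all 4 libraries. The locus was covered to 8.64% in restricted A, 18.9% in restricted B, 15.5% in control A and 19.4% in control B. The relative density was 1.51 in restricted A, 1.28 in restricted B, 1.25 in control A and 1.28 in control B. It thus exceeded 1 in every library, and restricted A stood above the other libraries. The remainder of chromosome 6 lay close to 1, at 0.946 and 1.01 in restricted A and B, and at 0.901 and 0.914 in control A and B. There both restricted libraries lay above both controls, with a log2 ratio of 0.11 and within-lane ratios of 1.05 in A and 1.10 in B. The locus over the remainder gave 1.60 and 1.27 in restricted A and B, against 1.38 and 1.40 in control A and B. For the locus itself the conditions were not separated. The relative density averaged 1.39 ± 0.167 in restricted and 1.26 ± 0.0227 in control libraries (SD, n = 2 each; exact permutation p = 0.667, two-sided), a log2 ratio of 0.14, which was 0.01 without restricted A. Restricted over control was 1.21 within A and 0.997 within B. With the remainder of chromosome 6 as the reference the log2 ratio was 0.04.

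**Figure D1:**
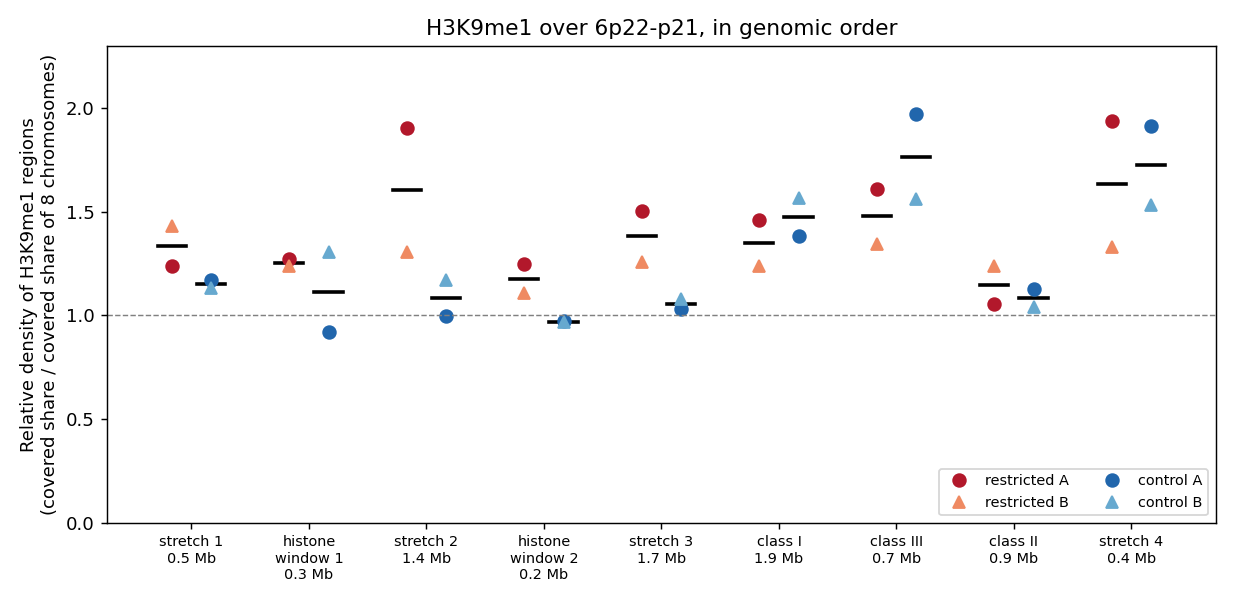
Relative density of H3K9me1 regions (vertical axis, no unit; the dashed line at 1 is each library's average over the 8 chromosomes) in the 9 windows and stretches of the locus in genomic order, with their lengths in Mb. Circles are A libraries, triangles B libraries, restricted on the left and control on the right of each pair, and bars are means of 2 libraries. Both restricted libraries lie above both controls in stretches 1, 2 and 3 and in histone window 2, and no window or stretch has both below. Of all 100 kb bins on the 8 chromosomes, 32.9% had both above and 20.2% both below. Of all 500 kb bins these were 39.5% and 22.8%.

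The histone gene windows were covered at about or slightly above the library averages. Histone window 1, with H1-1, H3C1, H4C1, H2BC8 and the iron regulator gene HFE, held 67 and 102 regions in restricted A and B, against 81 and 110 in control A and B. Its relative density was 1.27 in restricted A and 1.24 in restricted B, against 0.922 in control A and 1.30 in control B. Control A was the low library, and the groups overlapped. The means were 1.26 ± 0.0222 in restricted and 1.11 ± 0.270 in control libraries (SD, n = 2 each; exact permutation p = 1, two-sided). Restricted over control was 1.38 within A and 0.951 within B. The log2 ratio was 0.17, and without control A it was -0.05.

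Histone window 2, with the H3 genes H3C10, H3C11 and H3C12 and the H4 gene H4C13, held 38 and 70 regions in restricted A and B, against 56 and 63 in control A and B. Its relative density was 1.25 in restricted A and 1.11 in restricted B, against 0.972 in control A and 0.966 in control B. Both restricted libraries lay above both controls. The means were 1.18 ± 0.0970 in restricted and 0.969 ± 0.00385 in control libraries (SD, n = 2 each; exact permutation p = 0.333, two-sided, the smallest possible), with a log2 ratio of 0.28 and within-lane ratios of 1.28 in A and 1.15 in B. The difference lay in the 100 kb with the higher coordinates. At chr6:27800001-27900000 the relative density was 1.15 and 1.07 in restricted A and B, against 0.582 and 0.703 in control A and B (limma log2 difference 0.71 ± 0.28 SE, adjusted p = 0.202). At chr6:27700001-27800000 it was 1.34 and 1.13 in restricted A and B, against 1.36 and 1.23 in control A and B.

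Among the MHC classes, class III was denser than class II in all 4 libraries. The ratio of class III to class II, which needs no scaling between libraries, was 1.53 in restricted A and 1.09 in restricted B, against 1.74 in control A and 1.5 in control B. Its means were 1.31 ± 0.309 in restricted and 1.62 ± 0.170 in control libraries (SD, n = 2 each; exact permutation p = 0.667, two-sided). Restricted over control was 0.875 within A and 0.724 within B. The groups overlapped, with restricted B the lowest library. Over the 6 windows the densest exceeded the sparsest 1.57 times in restricted A and 1.21 times in restricted B, against 2.14 times in control A and 1.62 times in control B.

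Class III was the densest of the 6 windows in restricted B and control A, was second to the rest in restricted A, and lay just below class I in control B. It held 121 and 255 regions in restricted A and B, against 294 and 289 in control A and B. The relative density was 1.61 in restricted A and 1.35 in restricted B, against 1.97 in control A and 1.56 in control B. Control A was highest and restricted B lowest, and restricted A lay between the controls. The means were 1.48 ± 0.187 in restricted and 1.77 ± 0.290 in control libraries (SD, n = 2 each; exact permutation p = 0.667, two-sided), with a log2 ratio of -0.26 and within-lane ratios of 0.817 in A and 0.862 in B. Without control A the log2 ratio was -0.08. Within the class, chr6:31500001-31600000 was dense in every library, at 3.47 and 1.93 in restricted A and B, against 2.46 and 2.01 in control A and B. Among the bins of the 8 chromosomes its mean lay at the 99.99th percentile. At the far end, by the class II border, both restricted libraries lay below both controls. At chr6:32000001-32100000 the values were 0.921 and 1.45 in restricted A and B, against 2.42 and 1.90 in control A and B (limma log2 difference -0.84 ± 0.33 SE, adjusted p = 0.202). At chr6:32100001-32200000 they were 1.05 and 1.23 in restricted A and B, against 2.1 and 1.98 in control A and B (limma log2 difference -0.80 ± 0.27 SE, adjusted p = 0.170). Both bins were chosen after their values were seen.

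Class I held 365 and 676 regions in restricted A and B, against 602 and 779 in control A and B. Its relative density was 1.46 in restricted A and 1.24 in restricted B, against 1.38 in control A and 1.57 in control B. The groups overlapped, with restricted B lowest and control B highest. The means were 1.35 ± 0.158 in restricted and 1.47 ± 0.130 in control libraries (SD, n = 2 each; exact permutation p = 0.667, two-sided), with a log2 ratio of -0.13, which was -0.01 without restricted B. Restricted over control was 1.06 within A and 0.791 within B. The most negative difference of the whole locus lay here, at chr6:31000001-31100000, a bin also chosen after its values were seen. Its relative density was 0.949 and 1.27 in restricted A and B, against 2.13 and 2.43 in control A and B (limma log2 difference -0.98 ± 0.30 SE, adjusted p = 0.146).

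Class II had the lowest relative density of the MHC classes in restricted A, control A and control B, and in restricted B it was level with class I. It held 149 and 314 regions in restricted A and B, against 271 and 301 in control A and B. The relative density was 1.06 in restricted A and 1.24 in restricted B, against 1.13 in control A and 1.04 in control B. The means were 1.15 ± 0.128 in restricted and 1.08 ± 0.0648 in control libraries (SD, n = 2 each; exact permutation p = 0.667, two-sided). Restricted over control was 0.934 within A and 1.19 within B. The log2 ratio was 0.08, and without restricted B it was -0.04. The stretch from chr6:32400001 to chr6:32700000 held the 3 sparsest bins of the class. At chr6:32400001-32500000, one of the 3 sparsest bins of the locus, the relative density was 0.522 and 1.0 in restricted A and B, against 0.548 and 0.570 in control A and B. The HLA genes of classes I and II and the C4 genes have near-identical copies, and how reads that fit several copies were placed is not given in the sources used here.

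The rest of the locus was denser in restricted A and B than in either control. Its 4.0 Mb held 870 and 1538 regions in restricted A and B, against 1212 and 1401 in control A and B. The relative density was 1.65 in restricted A and 1.30 in restricted B, against 1.12 in control A and 1.16 in control B. The means were 1.48 ± 0.248 in restricted and 1.14 ± 0.0289 in control libraries (SD, n = 2 each; exact permutation p = 0.333, two-sided, the smallest possible), with a log2 ratio of 0.37. The ratio was larger within A, at 1.47, than within B, at 1.12. In the remainder of chromosome 6 both restricted libraries also lay above both controls, with within-lane ratios of 1.05 in A and 1.10 in B. Within B the rest thus differed little from the remainder of the chromosome. Without restricted A the log2 ratio was 0.19, and without restricted B it was 0.53. With the remainder of chromosome 6 as the reference it was 0.27.

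The difference lay between the histone gene windows and between the second of them and class I. This is a statement of position, and stretch 2 may itself hold histone genes. In stretch 2 the relative density was 1.90 in restricted A and 1.30 in restricted B, against 0.995 in control A and 1.17 in control B (log2 ratio 0.57, or 0.27 without restricted A; within-lane ratios 1.91 in A and 1.11 in B). In stretch 3 it was 1.5 in restricted A and 1.26 in restricted B, against 1.03 in control A and 1.08 in control B (log2 ratio 0.39, or 0.25 without restricted A; within-lane ratios 1.46 in A and 1.16 in B). Both restricted libraries lay above both controls in each stretch, with restricted A the highest. In stretch 1 the values were 1.24 and 1.43 in restricted A and B, against 1.17 and 1.13 in control A and B (log2 ratio 0.21). Stretch 4, beyond class II, was dense in every library and gave no separation, with 1.94 and 1.33 in restricted A and B, against 1.91 and 1.53 in control A and B (log2 ratio -0.08, exact permutation p = 1).

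These directions hold for relative densities. For the mean covered length with no scaling, the log2 ratio turned negative for the whole locus, both histone windows, class II, the rest and stretches 1 and 3, between -0.34 and -0.10, and it was near 0 for stretch 2, at 0.00. Restricted A had the lowest covered length in each of these. In the rest its regions covered 378 kb and those of restricted B 772 kb, against 558 and 706 kb in control A and B, and restricted B likewise exceeded both controls in class II, histone window 2 and stretches 1, 2 and 3. On that unscaled measure the median log2 difference over all 100 kb bins of the 8 chromosomes was -0.40, and that over the bins of the locus was -0.41.

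**Figure D2:**
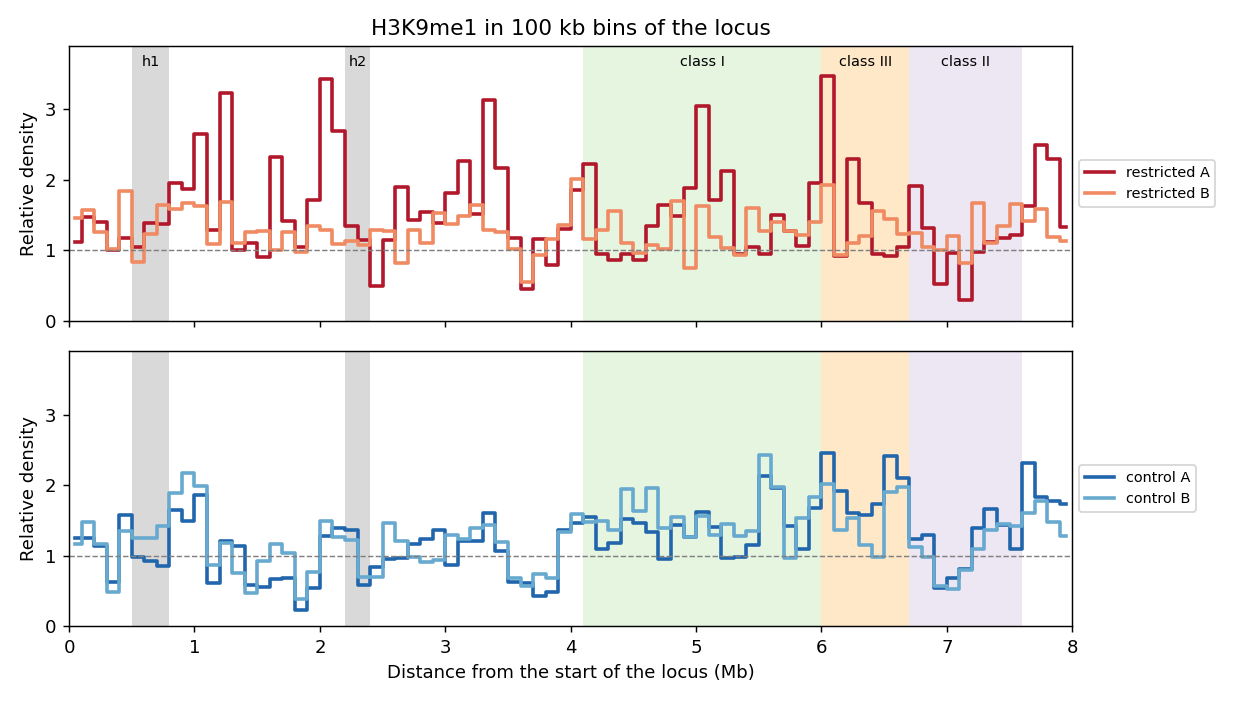
Relative density of H3K9me1 regions (vertical axis, no unit) in the 80 bins of 100 kb across the locus, with the restricted libraries in the upper panel and the control libraries in the lower panel, against the distance from the start of the locus in Mb. Shading marks histone windows 1 and 2 (h1, h2) and the MHC classes, and the dashed line at 1 is each library's average. Restricted A has single bins above 3 in stretches 2 and 3 and in classes I and III, while both controls fall to 0.223 and 0.392 in a trough between the histone windows.

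At 100 kb the locus had no bin that passed the test. The locus held 80 bins of 100 kb. With limma on log2(relative density + 0.1), Benjamini-Hochberg adjusted p under 0.05, 0 of 80 were called higher or lower in restricted libraries, as were 0% of 12120 bins on the 8 chromosomes in either direction. At an unadjusted p under 0.05 there were 15 of 80 bins in the locus (18.8%) and 2526 of 12120 on the 8 chromosomes (20.8%). Both restricted libraries lay above both controls in 22 of 80 bins (27.5%), against 32.9% of all bins. Both lay below both controls in 11 of 80 (13.8%), against 20.2% of all bins. The median log2 difference was 0.11 in the locus and 0.10 over all bins. Each of these shares was at or below the background, so at this scale the locus as a whole was not marked out by its differences.

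The call depended on single libraries. Without restricted B, 21 bins of the locus were called, 14 of them in the restricted-higher direction, and without restricted A 4 were called, which is 26.2% and 5.0% of the bins of the locus, against 24.0% and 6.85% of the bins of the 8 chromosomes in the same order. The 4 bins without restricted A were chr6:26900001-27000000, chr6:27300001-27400000 and chr6:27400001-27500000, all higher, and chr6:31000001-31100000, lower. With the letter as a replicate block, 1 bin was called, chr6:27300001-27400000. That bin had the smallest adjusted p of the locus in the fit on all 4 libraries. Its relative density was 1.05 in restricted A and 0.982 in restricted B, against 0.223 in control A and 0.392 in control B (limma log2 difference 1.49 ± 0.35 SE, adjusted p = 0.137; over its 11 alternatives between 0.00608 and 0.998). Its mean over the 4 libraries was among the 3 lowest of the locus, with the controls low and both restricted libraries near 1.

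Described by window, the bins of the locus pointed in different directions. In stretches 2 and 3, 16 of 31 bins had both restricted libraries above both controls (51.6%) and 1 had both below, with a median log2 difference of 0.38. In classes I and III, 1 of 26 bins had both above and 8 had both below (30.8%), with a median of -0.09. By class the counts below were 5 of 19 bins in class I and 3 of 7 in class III, and class II had 2 of 9 above and 2 below. The 5 histone bins had 1 above and 0 below, and stretch 4 had none of either. Neighbouring bins share a library's drift along the chromosome, so these counts are a description without a test, to be read against 32.9% above and 20.2% below over all bins.

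**Figure D3:**
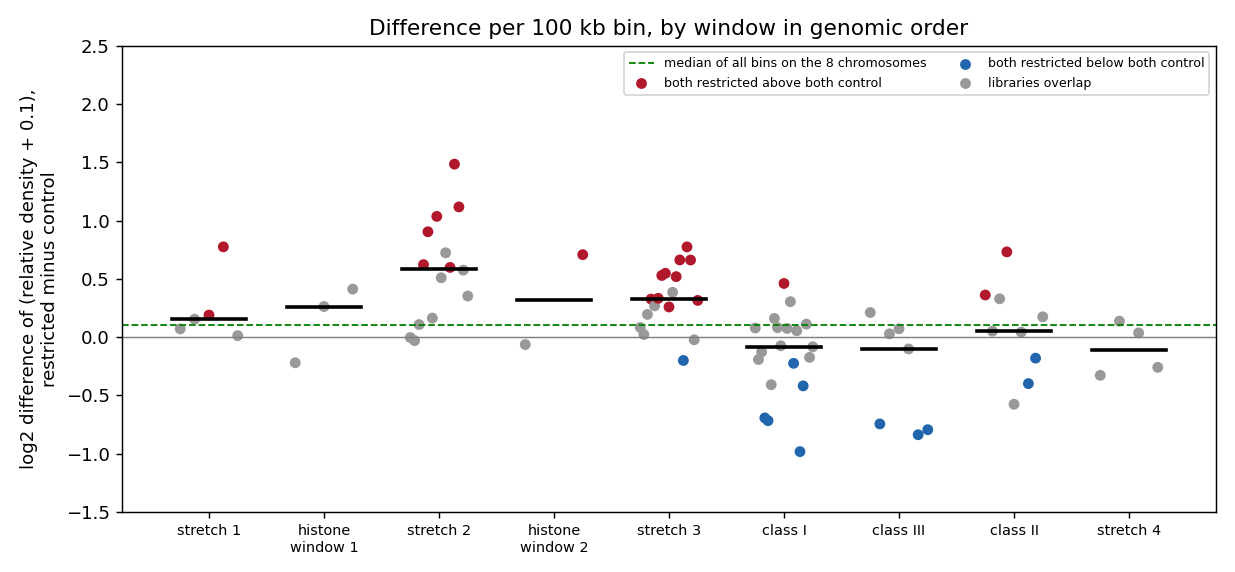
Log2 difference, restricted minus control, of relative density + 0.1 in each 100 kb bin (points), by window in genomic order, with the median of each window (black bars) and of all bins on the 8 chromosomes (green dashed line, 0.10). Red points have both restricted libraries above both controls, blue points both below and grey points overlap. Stretches 2 and 3 hold 16 of the 22 red points, and classes I and III hold 8 of the 11 blue points.

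At 500 kb the locus again had no called bin, where the test called 6.48% of 2438 bins higher and 1.85% lower in restricted libraries. Of the 16 bins of 500 kb, 0 were called and 3 (18.8%) had an unadjusted limma p under 0.05, against 776 of 2438 (31.8%) on the 8 chromosomes. The differences depended on the libraries. With all 4 libraries the median log2 difference was 0.14 over the 16 bins, against 0.08 over all bins. Without restricted A it was 0.06, against 0.10 over all bins, and without restricted B 0.17, against 0.10. Without control A it was 0.14, against 0.07 over all bins, and without control B 0.19, against 0.09. Both restricted libraries lay above both controls in 7 of 16 bins, against 39.5% of all bins, and below both in 2 of 16, against 22.8%. The 7 bins above were chr6:25500001-26000000 and the 6 consecutive bins from chr6:26500001 to chr6:29500000. The 2 below were chr6:31000001-31500000 and chr6:32000001-32500000.

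The largest difference was at chr6:27000001-27500000 in stretch 2. Its relative density was 1.48 in restricted A and 1.17 in restricted B, against 0.539 in control A and 0.857 in control B (limma log2 difference 0.86 ± 0.22 SE, adjusted p = 0.0530). This bin passed the limma test with a pseudocount of 0.5 (adjusted p = 0.0386), without control B (adjusted p = 0.00215) and with the letter as a replicate block (adjusted p = 0.000288), and over its 12 alternatives the adjusted p lay between 8.9e-05 and 0.984. The bin before it, chr6:26500001-27000000, had 1.86 and 1.35 in restricted A and B, against 1.08 and 1.06 in control A and B (limma log2 difference 0.53 ± 0.19 SE, adjusted p = 0.104). At chr6:29000001-29500000, in stretch 3, the values were 0.978 and 1.01 in restricted A and B, against 0.706 and 0.803 in control A and B (limma log2 difference 0.36 ± 0.15 SE, adjusted p = 0.148). This was the sparsest of the 16 bins, at the 33.1th percentile of all 500 kb bins. At chr6:28500001-29000000 they were 2.18 and 1.41 in restricted A and B, against 1.19 and 1.31 in control A and B. At chr6:27500001-28000000, which takes in histone window 2, they were 1.82 and 1.17 in restricted A and B, against 1.09 and 1.08 in control A and B. Restricted A was the highest library in both. The smallest differences of the 7 were at chr6:28000001-28500000, with 1.48 and 1.2 in restricted A and B, against 1.14 and 1.10 in control A and B, and at chr6:25500001-26000000, with 1.24 and 1.43 in restricted A and B, against 1.17 and 1.13 in control A and B.

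The densest 500 kb bin was chr6:31500001-32000000 in class III, at the 96.2th percentile of all bins. It had 1.86 and 1.35 in restricted A and B, against 1.86 and 1.41 in control A and B. Next was chr6:33000001-33500000, at the 95.8th percentile, with 1.79 and 1.40 in restricted A and B, against 1.75 and 1.51 in control A and B. Both had A libraries above B libraries within each condition and near-equal values between conditions. There were 2 bins with both restricted libraries below both controls. At chr6:31000001-31500000 the values were 1.35 and 1.31 in restricted A and B, against 1.65 and 1.75 in control A and B (limma log2 difference -0.33 ± 0.20 SE, adjusted p = 0.288). At chr6:32000001-32500000 they were 1.14 and 1.19 in restricted A and B, against 1.52 and 1.31 in control A and B (limma log2 difference -0.25 ± 0.16 SE, adjusted p = 0.317). In the other 5 bins the libraries of the 2 conditions overlapped, with log2 differences between -0.16 and 0.19, and these were chr6:26000001-26500000, chr6:29500001-30000000, chr6:30000001-30500000, chr6:30500001-31000000 and chr6:32500001-33000000.

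Of the 3 densest and 3 sparsest 100 kb bins, 2 had both restricted libraries above both controls and 1 had both below. These counts are near the shares over all 100 kb bins, 32.9% above and 20.2% below. After chr6:31500001-31600000 in class III, described above, came chr6:26500001-26600000 in stretch 2, with 2.65 and 1.63 in restricted A and B, against 1.86 and 1.99 in control A and B. The third was chr6:30500001-30600000 in class I, with 3.04 and 1.63 in restricted A and B, against 1.62 and 1.56 in control A and B, where restricted B exceeded control A by less than 0.01. The sparsest was chr6:29100001-29200000 in stretch 3, with 0.456 and 0.557 in restricted A and B, against 0.618 and 0.573 in control A and B. The others were chr6:27300001-27400000 and chr6:32400001-32500000, given above. No bin of the locus was empty in any library. Over the 80 bins the SD of log2(relative density + 0.1) was 0.60 in restricted A and 0.30 in restricted B, against 0.57 in control A and 0.50 in control B. Restricted B was thus the most even, and restricted A was not more even than the controls. Over the 8 chromosomes the same SD was 0.81 in restricted A and 0.56 in restricted B, against 1.12 in control A and 0.96 in control B, where both restricted libraries lay below both controls.

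Few regions were present in every list. Merging overlapping regions of the 4 lists gave 5462 in the locus. Of these, 346 (6.33%) were present in all 4 lists, against 4.64% on the 8 chromosomes. Regions in both restricted lists and neither control list numbered 177 (3.24%), against 2.61%, and those in both control lists and neither restricted list numbered 325 (5.95%), against 5.87%. A further 823 were in 3 lists and 1310 in 2, so 2479 (45.4%) were in 2 lists or more, against 40.9% on the 8 chromosomes, and 2983 (54.6%) were in 1 list. The counts for 1 condition changed order in the locus with equal numbers of regions per list. Of 3988 merged regions, 200 were then in the restricted lists only and 183 in the control lists only. On the 8 chromosomes the order did not change, with 18728 of 517947 in the restricted lists only and 22168 in the control lists only. Why the locus differed was not tested. Regions in all 4 lists had a median width of 1630 bp and those in 1 list 280 bp, though merging over more lists itself makes a region wider. The bases of the restricted A and B lists in the locus overlapped by 9.70% of their union, those of the control A and B lists by 16.2%, and pairs across conditions by 8.32% to 14.7%. Of the bases in the restricted A list, 28.2% lay in the restricted B list, which covered 18.9% of the locus.

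Class III had the highest share of regions in all 4 lists and in the control lists only, and the lowest share in the restricted lists only. Of its 447 merged regions 41 (9.17%) were in all 4 lists, 8 (1.79%) in the restricted lists only and 43 (9.62%) in the control lists only. Stretch 4 was close to it, with 24 of 273 (8.79%), 5 (1.83%) and 22 (8.06%). Over the 8 chromosomes these shares were 4.64%, 2.61% and 5.87%, in the same order. In class I, 77 of 1297 (5.94%) were in all 4 lists. It had 44 (3.39%) in the restricted lists only and 91 (7.02%) in the control lists only. Class II was near the shares of the 8 chromosomes. It had 29 of 583 (4.97%) in all 4 lists, 17 (2.92%) in the restricted lists only and 36 (6.17%) in the control lists only. In stretch 2, where both restricted libraries were denser, 71 of 959 (7.40%) were in all 4 lists. It had 35 (3.65%) in the restricted lists only and 40 (4.17%) in the control lists only. Histone window 1 had 7 of 207 regions (3.38%) in all 4 lists, and histone window 2 had 8 of 142 (5.63%).

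**Figure D4:**
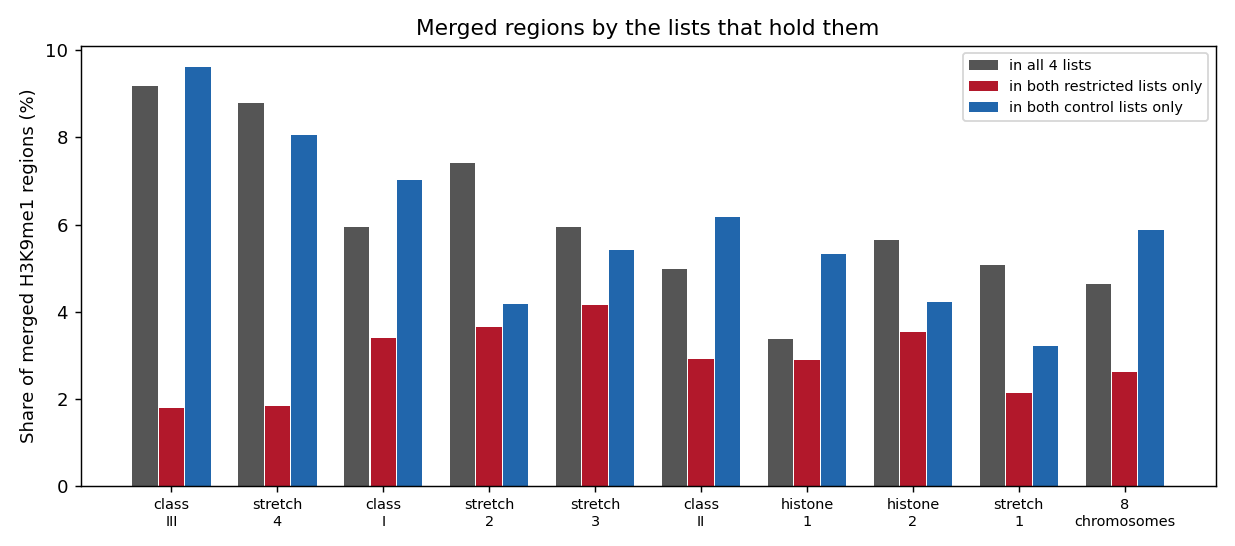
Share of merged H3K9me1 regions (vertical axis, %) that were in all 4 lists (grey), in both restricted lists only (red) or in both control lists only (blue), for each window and stretch and for the 8 chromosomes. In class III 9.17% of regions were in all 4 lists and 1.79% in the restricted lists only, against 9.62% in the control lists only.

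The widest region in all 4 lists was chr6:31022336-31028032 in class I, inside the bin with the most negative difference. It held 1.29 and 2.96 kb under regions in restricted A and B, against 1.22 and 3.58 kb in control A and B. The second was chr6:31589409-31594952 in class III, inside the densest bin, with 2.53 and 4.34 kb in restricted A and B, against 2.20 and 2.76 kb in control A and B. Next came chr6:33200763-33206044 in stretch 4, with 2.22 and 2.82 kb in restricted A and B, against 1.34 and 1.99 kb in control A and B. All 3 were slight by the authors' fold enrichment, whose highest value at them was between 1.84 and 2.15 in each library. The remaining ones among the 5 widest, chr6:31137216-31142178 in class I and chr6:26445598-26450479 in stretch 2, varied more. The one in class I held 0.190 and 3.69 kb in restricted A and B, against 3.06 and 3.92 kb in control A and B. The one in stretch 2 held 0.437 and 3.99 kb in restricted A and B, against 0.550 and 3.84 kb in control A and B.

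Regions of 1 condition were narrower than those in all 4 lists, though merging over more lists itself makes a region wider. Their median width was 576 bp for the restricted lists only and 699 bp for the control lists only. All regions in 2 lists had a median of 644 bp. The widest in the restricted lists only were chr6:31519947-31521524 (0.907 and 0.720 kb in restricted A and B) and chr6:31772429-31773993 (1.06 and 1.11 kb), both in class III, and chr6:28982448-28983927 in stretch 3 (1.48 and 0.754 kb). The widest in the control lists only were all in class I, at chr6:29723561-29726053 (1.54 and 1.64 kb in control A and B), chr6:30500277-30502717 (0.345 and 2.44 kb) and chr6:31004591-31006860 (1.40 and 1.42 kb). The last of these lay in the bin with the most negative difference.

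The regions themselves were weak in every library. Their median fold enrichment over the local background, the authors' value, was 1.86 in restricted A and 1.86 in restricted B, against 1.99 in control A and 1.83 in control B. The median width was 350 and 400 bp in restricted A and B, against 395 and 405 bp in control A and B. Regions with a −log10 p of at least 2 numbered 14 (0.870%) and 30 (1.02%) in restricted A and B, against 122 (4.85%) and 24 (0.815%) in control A and B. Control A stood apart, as it did on the 8 chromosomes, where the share was 4.28% against 0.667% in restricted A, 0.884% in restricted B and 0.858% in control B. No region reached an average −log10 p of 4, the value of the strong cutoff. The deposited value is averaged over the broad region, so it does not show whether single positions passed that cutoff. The highest values were 3.15 at chr6:26871327-26871498 in restricted A and 2.92 at chr6:29423875-29424172 in restricted B, against 3.01 at chr6:32557008-32557565 in control A and 2.90 at chr6:26867768-26867872 in control B. Each of them overlapped a region of at least 1 other list.

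H3K9me3, the trimethyl mark of heterochromatin profiled from the same times and letters, was rare in the locus. It had 8 and 2 peaks in restricted A and B, against 1 and 2 in control A and B, and no peak overlapped one of another library. They covered 3.81 and 1.42 kb in restricted A and B, against 1.11 and 1.03 kb in control A and B. The relative density was taken over the H3K9me3 covered share of all numbered chromosomes and X, not of the 8 used for H3K9me1. It was 0.817 and 0.759 in restricted A and B, against 0.291 and 0.413 in control A and B. By covered length the locus was thus poorer in H3K9me3 than the average in all 4 libraries. By number it held 0.426% and 0.297% of the peaks in restricted A and B, against 0.0729% and 0.251% in control A and B. The locus makes up 0.264% of the length of these chromosomes, so by number it was not poorer in the restricted libraries. Both restricted libraries lay above both controls, but with these few peaks the difference between conditions was not tested. The highest fold enrichment was 5.13 at chr6:28675297-28675632 in restricted A, where no H3K9me1 list had a region. One peak of restricted A, at chr6:27794600-27795482 in histone window 2, overlapped H3K9me1 regions of all 4 lists. In all, 9 of the 13 peaks overlapped an H3K9me1 region of the same time and letter, whose input both calls shared.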

How the data were processed

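Reads were aligned to hg19 with Bowtie2 2.1.0, SAMtools 1.5 was used, and peaks were called per library with MACS2 2.1.1.20160309, per the submitters' processing notes. Per the file headers, H3K9me1 was called in broad mode with the matching time and letter's input as background, at a strong p cutoff of 0.0001 and a weak one of 0.1, and a fragment length of 100 to 101 bp, so regions include many weak sites. The inputs held 23523460 (restricted A), 27843707 (restricted B), 27721656 (control A) and 24434844 (control B) reads, per the file headers. Of the deposited columns, pileup is a signal (read coverage), p and q are on a −log10 scale, and fold is a ratio to the local background. All were averaged over broad regions by the authors' caller and depend on each library's depth and scaling, so their values are set side by side across lists as a description only. The deposited length of each region, in bp, gave the covered share.

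Relative density, bins and merging (overlap of at least 1 bp) were computed in Python 3.11.15 with pandas 2.3.3. Bins on the 8 shared chromosomes (1263 Mb) with a region in 2 libraries or more entered limma 3.58.1 (R 4.3.3; lmFit, then eBayes with trend and robust) as log2(relative density + 0.1), called at a Benjamini-Hochberg adjusted p under 0.05. The added 0.1 understates changes of sparse bins. The H3K9me1 lists as used here do not all hold the same chromosomes; whether they are complete is not given in the sources used here, and only the 8 shared chromosomes were compared. The code was tested on simulated data. Beyond all windows, stretches and 500 kb bins, the rule named the 3 densest and 3 sparsest 100 kb bins, called bins, and the widest merged regions (5 in all lists, 3 of each condition). The windows, lists and tests were chosen with earlier results of these data known. No reference genome of hg19 was used, so no sequence is shown and no region was assigned to a gene, exon or intron. Alternatives tried were other thresholds, references, pseudocounts, filters, scalings and bin sizes, an equal number of regions per list, the letter as a block, and leaving out each library.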

Additional observations from a re-analysis of the deposited data

How the results depend on the processing

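Stretch 2 and class I kept the sign of their difference under all 12 alternatives, and the ratio of class III to class II under all 7, though at their smallest the log2 ratios were 0.0033 (stretch 2, no scaling), -0.011 (class I, without restricted B) and -0.090 (class III over class II, without restricted B). With no scaling for the amount called, an alternative chosen after seeing the data, the log2 ratio, restricted over control, turned to -0.34 for the locus, -0.28 for histone window 1, -0.18 for histone window 2, -0.29 for class II, -0.14 for the rest, -0.16 for stretch 1 and -0.10 for stretch 3. With regions of −log10 p of at least 2 it turned to 0.039 for class III, -0.75 for stretch 3 and 0.60 for stretch 4, each from few regions; at that threshold histone window 2, stretch 1 and class III over class II gave no value. Class II also turned with the remainder of chromosome 6 as the reference (-0.028) and with the number of regions in place of their length (-0.0076). Leaving out 1 library at a time gave -0.055 to 0.45 for histone window 1, -0.038 to 0.19 for class II and -0.38 to 0.17 for stretch 4. It gave 0.014 to 0.26 for the locus, -0.42 to -0.079 for class III, -0.58 to -0.090 for class III over class II, 0.19 to 0.53 for the rest and 0.27 to 0.81 for stretch 2. The cause was not tested.

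Calls in 100 kb bins ranged from 0 to 21 in the locus and from 0 to 2906 on the 8 chromosomes when 1 library was left out; the lone library of a condition is then assumed to vary like the others. With the letter as a replicate block they numbered 1 and 491. Of the 500 kb bins, 203 were called on the 8 chromosomes. Leaving out 1 library gave 0 to 5 in the locus and 223 to 795 on the 8 chromosomes. The replicate block gave 1 and 561. With a pseudocount of 0.5 there was 1 in the locus and 284 on the 8 chromosomes. With a pseudocount of 0.05, no filter, quantile normalization, no scaling or −log10 p of at least 2, 0 were called on the 8 chromosomes. The deviations of same-lettered libraries correlated weakly (r = -0.12 over 2438 bins, 1 independent pair), which does not show how the letters pair, and a crossed replicate block, added after seeing the data, gave 2 and 554 calls of 500 kb and 0 of 100 kb. The replicate block changed the direction of no window.

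Of the 346 regions in all 4 lists, 4 remained where each list had to cover 50% of the merged region. With equal numbers of regions per list 129 were in all 4 lists, 200 in the restricted lists only and 183 in the control lists only. These were of 3988 merged regions, against 9747, 18728 and 22168 of 517947 on the 8 chromosomes, in the same order. At −log10 p of at least 2 the locus had 0 of any kind, restricted lists only included. The weak cutoff, the short restricted A list and 2 libraries per condition limit all of these values, and counting error within regions could not be given, since the lists hold no read counts.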
